A study of Mus musculus with 6 samples.

Results

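RNA of 8 genes of TGF-beta signalling was followed in mouse macrophage cultures given a RIP1 kinase inhibitor, labelled RIP1i, or its solvent DMSO. The members were chosen by gene symbol. They are the ligand gene Tgfb1, the receptor genes Tgfbr1 and Tgfbr2, the signal transducers Smad2, Smad3 and Smad4, the inhibitor Smad7, and the co-repressor Skil. All 8 were found among the 52459 genes of the deposited table, and all 8 were among the 14857 genes that passed the filter on low counts. Bone marrow cells of C57BL/6 mice had been grown with GM-CSF, which yields macrophages mixed with other myeloid cells. RIP1i or DMSO was added overnight from day 7. There were 3 RIP1i and 3 DMSO libraries. Both groups share strain, GM-CSF and day of treatment. The labels give neither the compound nor its dose, nor the age of the mice, nor the source of the replicates, which may be repeat preparations of one culture. All p-values then rest on the spread among the 6 libraries, possibly a technical one.

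TGF-beta is secreted as a latent complex and must be released from it before it can bind. The active ligand binds the type II receptor, encoded by Tgfbr2, which recruits and phosphorylates the type I receptor, encoded by Tgfbr1. The type I receptor phosphorylates SMAD2 and SMAD3, which join SMAD4 and enter the nucleus to regulate target genes. SMAD7 blocks the type I receptor, and the SKI-like protein encoded by Skil represses transcription with SMADs, while both genes are themselves induced by the pathway. In macrophages TGF-beta is known for restraining inflammatory activation.

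Library totals ran from 40264902 to 44862310 counts. Macrophage marker genes were abundant in every library, led by Lyz2 and Csf1r, and the 5 T or B cell markers summed to at most 0.237 CPM (read counts scaled to library size, with TMM factors). The libraries were not of one composition. The 10 stromal or fibroblast markers, none at 0 in any library, summed to 241, 84.4 and 197 CPM in RIP1i replicates 1 to 3, against 205, 360.1 and 93.8 CPM in DMSO replicates 1 to 3. The 6 neutrophil markers, also none at 0, summed to 402, 568 and 192 CPM in RIP1i replicates 1 to 3, against 391, 202 and 539 CPM in DMSO replicates 1 to 3. RIP1i replicate 2 was thus the least stromal library, with DMSO replicate 3 close to it, and DMSO replicate 2 the most stromal. In such bulk samples, fewer cells of a type and less RNA per cell cannot be told apart.

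None of the members passed the comparison of RIP1i with DMSO. The test was edgeR's quasi-likelihood test with Benjamini-Hochberg adjustment over all genes tested, with a threshold of 0.05. It called 0 of the 8 members, and 0.00% of the 14857 genes tested. The smallest adjusted p of any gene was 0.777. DESeq2 called 2 genes and limma-voom 0, none of them a member. Without adjustment, 0 members had p under 0.05, against 6.21% of all genes tested, and 3 members had p under 0.1, Tgfbr1, Tgfbr2 and Smad2, against 12.7% of all genes tested. The median log2 fold change of the members was 0.023, and that of all genes 0.0025.

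The receptors had the highest levels of the members and were fitted in opposite directions, so the sequence around their start sites is shown here, from RefSeq on GRCm38.p6. Each window runs from 250 bases before to 50 bases after the start, and 4 of the 8 members had an entry. Capitals mark matches, on either strand, to the GC box GGGCGG or to the SMAD box half-site CAGAC. Tgfbr1 lies at chr4:47352972-47353271 on the plus strand, and Tgfbr2 at chr9:116175314-116175613 on the minus strand.
Tgfbr1: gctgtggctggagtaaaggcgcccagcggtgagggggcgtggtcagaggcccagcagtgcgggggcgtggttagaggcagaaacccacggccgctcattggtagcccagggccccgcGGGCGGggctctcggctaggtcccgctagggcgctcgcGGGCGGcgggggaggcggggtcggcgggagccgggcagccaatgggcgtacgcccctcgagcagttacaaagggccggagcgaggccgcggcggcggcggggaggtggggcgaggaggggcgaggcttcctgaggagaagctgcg
Tgfbr2: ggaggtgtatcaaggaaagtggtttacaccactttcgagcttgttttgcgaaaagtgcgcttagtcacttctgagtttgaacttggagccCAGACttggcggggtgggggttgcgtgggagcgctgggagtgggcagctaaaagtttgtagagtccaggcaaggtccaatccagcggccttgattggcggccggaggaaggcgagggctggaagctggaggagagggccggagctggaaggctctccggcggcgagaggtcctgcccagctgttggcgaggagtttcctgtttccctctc
The Tgfbr1 window held 2 GC boxes and no SMAD half-site, and 74.7% of its bases were G or C. The Tgfbr2 window held no GC box and 1 SMAD half-site, and 59.0% of its bases were G or C, where the median of all promoter windows was 52.7%. Of 32851 windows of this length, 35.7% held a GC box and 49.6% held a CAGAC half-site, so both matches are common. The palindromic SMAD element GTCTAGAC, found in 0.213% of windows, and the AP-1 site TGANTCA, found in 7.81%, were in neither. The window shown for Tgfbr1 is that of the start at the gene's annotated 5′ end. A window at another annotated start, chr4:47385966-47386265, held no GC box and 1 CAGAC half-site, with 52.0% G or C, so the contrast with Tgfbr2 in these motifs depends on the start chosen.

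Per gene length, the members spanned a 123-fold range of levels, and the order was the receptors, the ligand, the transducers, and then the inhibitors with Smad3 at the bottom. Levels are the deposited FPKM, read counts scaled by gene length and library, as mean ± SD over the 3 libraries of a group. Tgfbr1 stood at 52.0 ± 3.02 FPKM in RIP1i and 46.9 ± 4.12 FPKM in DMSO. Tgfbr2 followed with 39.8 ± 1.11 FPKM in RIP1i and 42.3 ± 0.210 FPKM in DMSO. Tgfbr1 exceeded Tgfbr2 within each of the 6 libraries, although the 2 genes' ranges over libraries overlapped.

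Tgfb1 had 23.8 ± 2.43 FPKM in RIP1i and 23.1 ± 1.27 FPKM in DMSO, below both receptors in every library. Smad4, the common partner, had 16.8 ± 0.997 FPKM in RIP1i and 16.7 ± 0.248 FPKM in DMSO. Smad2 had 16.4 ± 0.512 FPKM in RIP1i and 15.5 ± 0.242 FPKM in DMSO. Smad4 and Smad2 did not differ beyond their spread, with Smad4 above Smad2 in 5 of 6 libraries and a ratio of their means of 1.05. All other neighbours below the receptors had ranges that did not overlap.

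Skil followed with 12.8 ± 1.52 FPKM in RIP1i and 12.5 ± 0.0208 FPKM in DMSO. Smad7 had 2.05 ± 0.0551 FPKM in RIP1i and 2.07 ± 0.0458 FPKM in DMSO. Smad3 had 0.397 ± 0.104 FPKM in RIP1i and 0.410 ± 0.131 FPKM in DMSO. The ratio of Smad2 to Smad3 per length was 33.0 to 59.9 in the RIP1i libraries and 27.2 to 48.8 in the DMSO libraries. Over the 6 libraries, Tgfbr1 lay above 94.0% of the tested genes in FPKM, Tgfb1 above 86.2% and Smad3 above 17.6%.

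**Figure D1:**
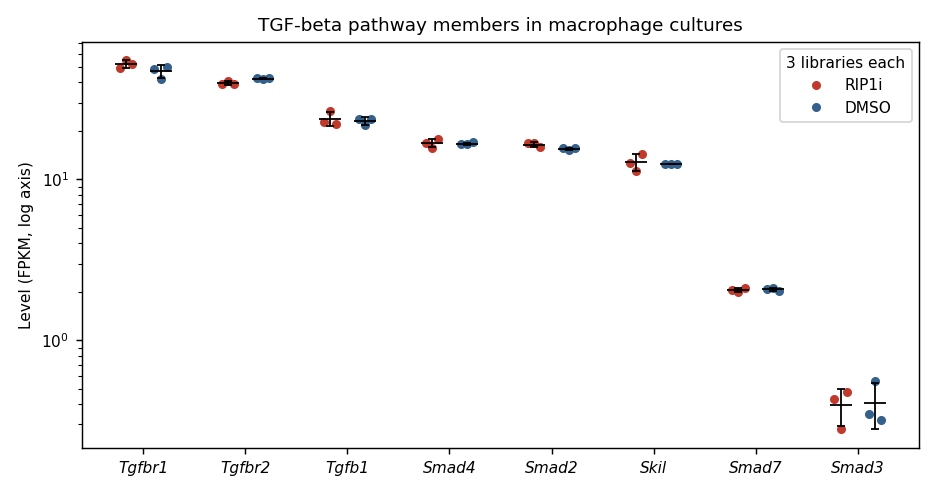
Level of each member in FPKM (log axis), in order of mean level, with RIP1i left of DMSO. Points are single libraries and bars show mean ± SD (n = 3 each). The groups lie close together for every gene, and Smad3, at 0.397 FPKM in RIP1i and 0.410 FPKM in DMSO, lies lowest with the widest relative spread.

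The ligand gene Tgfb1 (chromosome 7, 25687002 to 25705077, plus strand, GRCm38) had 114, 133 and 113 CPM in RIP1i replicates 1 to 3, against 121, 109 and 119.9 CPM in DMSO replicates 1 to 3. The highest and the lowest library were RIP1i replicate 2 and DMSO replicate 2, and the groups overlapped. The log2 fold change, RIP1i minus DMSO, was 0.043 ± 0.074 (SE), with a 95% interval from -0.13 to 0.22. It was -0.051 without RIP1i replicate 2 and -0.0073 without DMSO replicate 2, so its sign rested on these libraries.

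The receptor genes were fitted in opposite directions. Tgfbr2 (chromosome 9, 116084293 to 116175360, minus strand) had 323, 335 and 323 CPM in RIP1i replicates 1 to 3, against 348, 345 and 347 CPM in DMSO replicates 1 to 3. All RIP1i values lay below all DMSO values. Its log2 fold change was -0.084 ± 0.037, with a 95% interval from -0.17 to 0.0013, an unadjusted p of 0.0528 and an adjusted p of 0.777 in edgeR. Over all 18 alternative settings it lay between -0.12 and -0.078, with no call.

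Tgfbr1 (chromosome 4, 47353222 to 47414931, plus strand) had 321, 358 and 345 CPM in RIP1i replicates 1 to 3, against 319, 277 and 325 CPM in DMSO replicates 1 to 3. RIP1i replicate 1 lay below DMSO replicate 3, so the groups overlapped, and DMSO replicate 2 was the lowest of all. The fitted log2 fold change was 0.15 ± 0.072, with a 95% interval from -0.015 to 0.32 and an adjusted p of 0.777 in edgeR. It was 0.076 without DMSO replicate 2, and 0.033 without both RIP1i replicate 2 and DMSO replicate 2.

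The ratio of Tgfbr2 to Tgfbr1, taken per gene length within each library, was added after the values were seen. It was 0.805, 0.748 and 0.747 in RIP1i replicates 1 to 3, against 0.871, 0.996 and 0.851 in DMSO replicates 1 to 3. All RIP1i libraries lay below all DMSO libraries, with means of 0.766 ± 0.0331 in RIP1i and 0.906 ± 0.0787 in DMSO (SD, n = 3 each). It was 1 of 5 ratios of members computed. Tgfb1 over Tgfbr2 was separated as well, at 0.566 to 0.646 in RIP1i and 0.514 to 0.562 in DMSO, and both ratios contain Tgfbr2, whose own groups did not overlap. No test was made of any ratio.

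**Figure D2:**
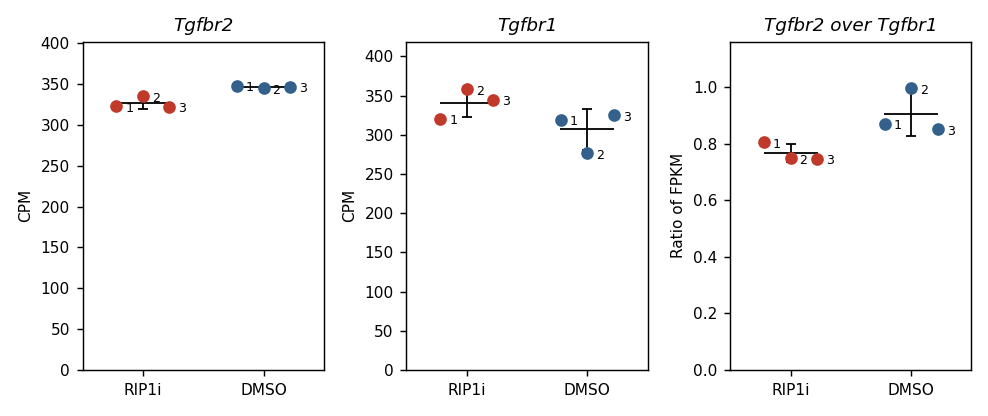
Tgfbr2 and Tgfbr1 in CPM, and the ratio of their FPKM, with RIP1i left of DMSO. Points are libraries with their replicate number and bars show mean ± SD (n = 3 each). Tgfbr2 and the ratio do not overlap between groups, while Tgfbr1 does, and DMSO replicate 2 has both the lowest Tgfbr1, 277 CPM, and the highest ratio, 0.996.

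Among the transducers, Smad2 (chromosome 18, 76241580 to 76310963, plus strand) had 59.5, 59.3 and 56.8 CPM in RIP1i replicates 1 to 3, against 55.9, 54.2 and 55.2 CPM in DMSO replicates 1 to 3. All RIP1i values lay above all DMSO values. Smad2 was fitted at 0.086 ± 0.039 in log2 fold change, with a 95% interval from -0.0044 to 0.18 and an adjusted p of 0.777 in edgeR. The value without both RIP1i replicate 2 and DMSO replicate 2 was 0.052, the lowest over the 18 alternatives. These are the libraries of extreme stromal level. They also differed in neutrophil markers, with sums of 568 and 202 CPM. Of the 8 members, Smad2 and Tgfbr2 were the 2 whose groups did not overlap, 1 higher and 1 lower in RIP1i, where 13.5% of all genes tested were separated, 7.36% with RIP1i higher and 6.18% with RIP1i lower. With 8 members, a count of 2 is not distinguished from that background.

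Smad4 (chromosome 18, 73639009 to 73703780, minus strand), which encodes the partner shared with the BMP branch, had 62.8, 58.3 and 66.5 CPM in RIP1i replicates 1 to 3, against 61.9, 61.4 and 62.8 CPM in DMSO replicates 1 to 3. The RIP1i libraries lay on both sides of the DMSO libraries, and its log2 fold change was 0.011 ± 0.053, with a 95% interval from -0.11 to 0.13.

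Smad3 (chromosome 9, 63646767 to 63757994, minus strand) was the member that varied most between libraries. It had 97, 66 and 112 counts in RIP1i replicates 1 to 3, against 86, 126 and 81 counts in DMSO replicates 1 to 3. In CPM these were 2.41, 1.57 and 2.71 in RIP1i, against 1.93, 3.14 and 1.79 in DMSO. The spread exceeded counting error, since the exact Poisson 95% intervals of the extreme counts did not meet. They ran from 51.0 to 84.0 for RIP1i replicate 2 and from 105 to 150.02 for DMSO replicate 2, and cover counting error only.

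The log2 fold change of Smad3 was -0.036 ± 0.28, with a 95% interval from -0.69 to 0.62, the only one of the 8 that reached beyond 1.5-fold. Without RIP1i replicate 2 the value was 0.16, and without DMSO replicate 2 it was 0.25. Without both it was 0.44 ± 0.17 with an adjusted p of 0.602 in edgeR. That last fit kept stromal marker sums of 241 and 197 CPM in RIP1i against 205 and 93.8 CPM in DMSO. The library with the lowest Smad3, RIP1i replicate 2, also had the lowest sum of stromal markers, 84.4 CPM. That with the highest Smad3, DMSO replicate 2, had the highest, 360.1 CPM. Neutrophil markers ran the other way, with their highest sum, 568 CPM, in RIP1i replicate 2. DMSO replicate 2 had 202 CPM of them, and only RIP1i replicate 3 was lower, at 192 CPM. The parts of stromal cells and of neutrophils in the Smad3 values were not tested.

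The genes whose pattern over the 6 libraries was most like that of Smad3 were Ccl7, a monocyte chemokine gene, Ptx3, a pentraxin gene, and Shb, an adaptor gene. Likeness was the root mean square difference of log2 CPM after centring each gene, which was 0.080, 0.099 and 0.11, among the 8535 genes that averaged 10 CPM or more. Each of the 3 had its lowest level in RIP1i replicate 2 and its highest in DMSO replicate 2, which largely follows from picking by likeness. Ccl7, for example, had 13.1, 9.95 and 14.6 CPM in RIP1i and 11.8, 17.9 and 10.1 CPM in DMSO. For Tgfbr1, the member with the next largest spread, the most similar were Lztfl1, Tsg101, an ESCRT sorting gene, and Cfap36, with differences of 0.019, 0.020 and 0.024.

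**Figure D3:**
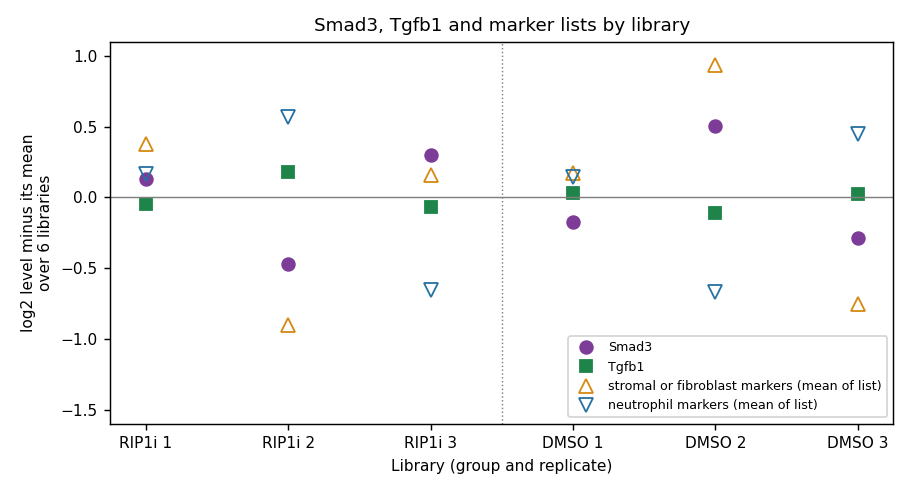
Smad3 and Tgfb1 (log2 CPM), and the stromal and neutrophil marker lists (mean over the list of log2(CPM + 1)), each minus its mean over the 6 libraries, by library. Smad3 and the stromal markers are lowest in RIP1i replicate 2 and highest in DMSO replicate 2, and Tgfb1 is highest in RIP1i replicate 2 and lowest in DMSO replicate 2. The neutrophil markers are highest in RIP1i replicate 2 and low in both DMSO replicate 2 and RIP1i replicate 3.

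For both inhibitors the group means lay close together, while Smad7 varied little between libraries and Skil more. Smad7 (chromosome 18, 75367529 to 75395935, plus strand) had 9.30, 9.0 and 9.64 CPM in RIP1i replicates 1 to 3, against 9.42, 9.58 and 9.08 CPM in DMSO replicates 1 to 3. Its log2 fold change was -0.0076 ± 0.066, with a 95% interval from -0.16 to 0.15, and the highest library exceeded the lowest by 7.07%. Smad7 had the smallest spread over the 6 libraries of all members.

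Skil (chromosome 3, 31095058 to 31122577, plus strand) had 123, 109 and 140.5 CPM in RIP1i replicates 1 to 3, against 122, 122 and 120.4 CPM in DMSO replicates 1 to 3. The DMSO libraries were nearly equal, while the RIP1i libraries lay on both sides of them, with an SD of 15.6 CPM in RIP1i against 0.647 CPM in DMSO. The log2 fold change was 0.035 ± 0.083, with a 95% interval from -0.16 to 0.23. Leaving out RIP1i replicate 2 gave 0.11 and leaving out RIP1i replicate 3 gave -0.067, so these libraries set its sign and size.

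For 7 of the 8 members the 95% interval lay within 1.5-fold of equality in both directions, with Smad3 the exception, against 73.0% of all genes tested. The fitted value was positive for 5 members and negative for 3, and it was positive for 51.0% of all genes tested.

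**Figure D4:**
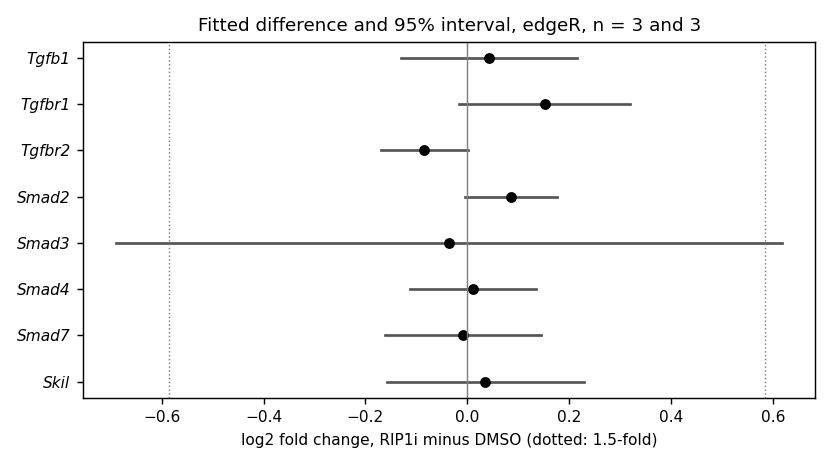
Fitted log2 fold change of each member, RIP1i minus DMSO, with its 95% interval (edgeR, n = 3 and 3 libraries). Dotted lines mark 1.5-fold, and the interval of Smad3, from -0.69 to 0.62, is the one that crosses them.

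The surrounding pathway was described with 5 lists that held 73 genes, of which 66 were tested. None passed in either direction, 36 were fitted higher and 30 lower in RIP1i, and their median log2 fold change was 0.0097. Without adjustment, 4 genes had p under 0.05 (6.06%, against 6.21% of all genes tested), and in 9 genes the groups did not overlap (13.6%, against 13.5%). Both shares lay at the background.

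Of 11 tested genes for ligands and the latent complex, 6 were fitted higher and 5 lower. Thrombospondin, encoded by Thbs1, and the protease furin, encoded by Furin, which release or process TGF-beta, had the highest levels of the list. Thbs1 stood at 129 ± 28.2 FPKM in RIP1i and 129 ± 10.8 FPKM in DMSO, and Furin at 59.1 ± 3.27 FPKM in RIP1i and 58.8 ± 2.12 FPKM in DMSO. Nrros, which binds latent TGF-beta on myeloid cells and was named after its values were seen, had 49.6 ± 5.46 FPKM in RIP1i and 49.2 ± 3.54 FPKM in DMSO. The other ligand genes were weak, with Tgfb2 at 0.155 to 0.322 CPM and Tgfb3 at 0.884 to 1.497 CPM over the 6 libraries. The log2 fold changes were 0.49 ± 0.30 for Tgfb2 and 0.22 ± 0.21 for Tgfb3, and without DMSO replicate 3 they were 0.27 for Tgfb2 and 0.050 for Tgfb3. Tgfb3 was at 0.13 without RIP1i replicate 3. Ltbp3, a latent TGF-beta binding protein gene, had -0.35 ± 0.16, with -0.22 without RIP1i replicate 2, -0.54 without RIP1i replicate 3 and -0.16 without both libraries of extreme stromal level. Another 3 genes, Ltbp4, Itgb8 and Itgb6, had at most 4 counts in a library and were not tested.

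Of 15 co-receptors and receptor regulators, 8 were fitted higher and 7 lower. The groups did not overlap in 4 of them (26.7%), Tgfbr3, Usp4, Strap and Fkbp1a, against 13.5% of all genes tested. Without adjustment, 3 had p under 0.05 in edgeR (20%, against 6.21% of all genes tested). Tgfbr3, which encodes the co-receptor betaglycan, had 13.5, 12.2 and 12.6 CPM in RIP1i replicates 1 to 3, against 14.3, 15.1 and 13.9 CPM in DMSO replicates 1 to 3, so that the groups were separated, as for Tgfbr2. Its log2 fold change was -0.18 ± 0.065, with an adjusted p of 0.777 in edgeR. Strap, whose product binds the receptors and SMAD7, had 110.01, 109 and 112 CPM in RIP1i replicates 1 to 3, against 103, 103 and 103 CPM in DMSO replicates 1 to 3. These groups did not overlap either, and the log2 fold change was 0.094 ± 0.034 with an adjusted p of 0.777 in edgeR. Fkbp1a, whose product binds the inactive type I receptor, had 0.15 ± 0.063, which was 0.073 without RIP1i replicate 2 and 0.049 without both libraries of extreme stromal level. Hgs, an endosomal sorting gene, had -0.027 ± 0.037, with -0.052 without RIP1i replicate 1 and -0.043 without DMSO replicate 3.

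Of 13 other SMADs and nuclear partners, 6 were fitted higher and 7 lower. In 3 of them (23.1%), Sin3a, Ski and Ncor1, the RIP1i values all lay below the DMSO values. Of all genes tested, 13.5% were separated in either direction and 6.18% in that direction. With 13 genes, a count of 3 is not distinguished from the share in either direction. For Ski the margin was 118.169 CPM in RIP1i replicate 2 against 118.191 CPM in DMSO replicate 3, and in FPKM these libraries were equal at 21.31. Their log2 fold changes were small, with -0.097 ± 0.042 for Sin3a, -0.065 ± 0.040 for Ski and -0.033 ± 0.034 for Ncor1, and none had an unadjusted p under 0.05. The acetyltransferase gene Ep300, a co-activator, had -0.17 ± 0.088, with -0.10 without RIP1i replicate 2 and -0.11 without DMSO replicate 1.

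Of 16 SMAD target genes, 7 were fitted higher and 9 lower. In none did the groups separate, where 13.5% of all genes tested were separated. Tgfbi, an extracellular matrix gene, was the strongest of them per length and had a log2 fold change of 0.13 ± 0.16, which was -0.054 without RIP1i replicate 2. The transcription factor genes Bhlhe40, Junb and Klf10 had -0.013 ± 0.078, 0.080 ± 0.052 and 0.071 ± 0.049. Junb was at 0.022 without DMSO replicate 1 and 0.049 without RIP1i replicate 2. Klf10 was at 0.029 without DMSO replicate 2, 0.039 without RIP1i replicate 2 and 0.0016 without both. Fn1, which encodes fibronectin, had 69.2, 42.3 and 83.1 CPM in RIP1i replicates 1 to 3, against 74.8, 102 and 92.2 CPM in DMSO replicates 1 to 3. Its log2 fold change of -0.47 ± 0.23 was -0.25 without RIP1i replicate 2 and -0.15 without both libraries of extreme stromal level, and it too was lowest in the least stromal and highest in the most stromal library. DMSO replicate 3 was nearly as low in stromal markers as RIP1i replicate 2, at 93.8 against 84.4 CPM. Its Fn1, 92.2 CPM, lay above that of every RIP1i library. The relation of Fn1 to stromal cells was not tested.

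Of 11 tested genes of the activin and BMP branch, 9 were fitted higher and 2 lower. Gdf3, which encodes a ligand of the TGF-beta superfamily, had the largest fitted difference of the 66 tested pathway genes. It had 39, 31 and 41 counts in RIP1i replicates 1 to 3, against 74, 70 and 62 counts in DMSO replicates 1 to 3, and the groups did not overlap. Its level was 0.898 ± 0.140 CPM in RIP1i and 1.59 ± 0.196 CPM in DMSO (SD, n = 3 each). The log2 fold change was -0.82 ± 0.19, with a 95% interval from -1.27 to -0.38, an unadjusted p of 0.00292 and an adjusted p of 0.777 in edgeR, so it did not pass. Without each library in turn it lay between -0.93 and -0.71, and without both libraries of extreme stromal level it was -0.64. On the log2(FPKM + 1) scale, which understates changes of low genes, it was -0.28, and on the log2(FPKM + 0.1) scale -0.70. The receptor gene Bmpr2 had 0.12 ± 0.064, or 0.068 without RIP1i replicate 3. The receptor gene Acvr1b had 0.058 ± 0.057, or -0.016 without RIP1i replicate 2. Inhba, which encodes an activin subunit, had 0.15 ± 0.15. Leaving out RIP1i replicate 3 gave -0.034, leaving out RIP1i replicate 2 gave 0.28, and leaving out DMSO replicate 3 gave 0.073.

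**Figure D5:**
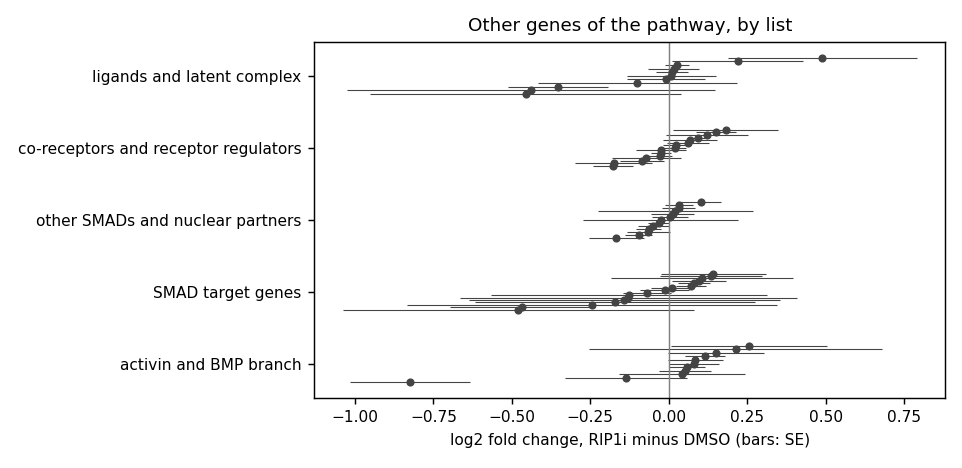
Log2 fold change of the 66 tested pathway genes, RIP1i minus DMSO, by list. Points are genes and bars their SE (n = 3 and 3 libraries). Most points lie near 0, and Gdf3, at -0.82 in the activin and BMP list, lies farthest out.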

How the data were processed

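RNA of 6 libraries was sequenced. The authors deposited raw read counts per gene and FPKM values for the same genes. The submitters' processing notes name the build mm10 and, among their tools, STAR 2.5.3a, DESeq2 1.14.0 and featureCounts of Subread 1.4.6-p3. For the annotation, the strand setting and the role of each tool, details were not given in the sources used here. The deposited FPKM are the counts under another scaling: their library factors matched the median-of-ratios size factors within 0.000197% over 4338 genes.

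The members and lists were chosen with earlier results of these data known. Genes were filtered with filterByExpr of edgeR 4.0.16 in R 4.3.3 (minimum count 10, minimum total 15). RIP1i was compared with DMSO by the 2-sided quasi-likelihood F test, with TMM scaling and treatment as the only term, and p was adjusted over all 14857 genes (threshold 0.05). The SE came from the F statistic. The code was tested on simulated data. Replicates of a group differed beyond counting noise in every pair. The chi-squared of their counts per degree of freedom was 12.3 to 18.3 within DMSO and 29.6 to 35.7 within RIP1i. Across groups it was 11.4 for RIP1i replicate 2 with DMSO replicate 3, the smallest of all pairs. It was 12.7 for RIP1i replicate 3 with DMSO replicate 1, so some libraries of different treatment were more alike than RIP1i replicates. Alternatives used DESeq2 1.42.0, limma 3.58.1, other scalings and filters, FPKM, and left-out libraries. Of the 18, 1 was the main fit with a threshold of 0.1, so its log2 fold changes are the same. Named list genes are the 3 with the smallest p and the 2 with the highest mean FPKM. Positions are from GENCODE on GRCm38, the assembly of mm10, where no other gene overlapped an exon of a member.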

Additional observations from a re-analysis of the deposited data

How the results depend on the processing

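None of the 8 members was called under any of 18 alternatives, and 0 to 4 of all genes were. DESeq2 called 2 and limma-trend on log2(FPKM + 1) without a filter called 4, while leaving out 1 library gave 0 in every case. Tgfbr1, Tgfbr2 and Smad2 kept their sign throughout, as did 16 of the 22 other named genes. The sign of a log2 fold change near 0 carried no information. With upper-quartile scaling Smad4 was at -0.0011, Thbs1 at -0.0017 and Furin at -0.0015. Thbs1 was at -0.0098 with limma-voom, and with FPKM at -0.013 under both pseudocounts and without a filter. With the replicate number as a block, no gene was called and Thbs1 was at -0.010, the one named gene to turn. Same-numbered libraries did not deviate together (correlations of 0.0091, -0.69 and -0.64), which says nothing of a pairing under other numbers. RIP1i replicate 2 and DMSO replicate 3 were alike in stromal markers (84.4 and 93.8 CPM) and neutrophil markers (568 and 539 CPM). The labels give no pairing, and a pairing or batch across groups was not tested. Leaving out 1 library gave ranges from -0.051 to 0.084 for Tgfb1, -0.20 to 0.25 for Smad3, -0.039 to 0.048 for Smad4, -0.037 to 0.0057 for Smad7, -0.067 to 0.11 for Skil, -0.18 to 0.13 for Thbs1, -0.041 to 0.036 for Furin, -0.054 to 0.27 for Tgfbi, -0.11 to 0.034 for Bhlhe40, -0.016 to 0.088 for Acvr1b and -0.034 to 0.28 for Inhba. Without both libraries of extreme stromal level, Tgfb1 was at -0.097, Smad3 at 0.44, Smad7 at 0.020, Thbs1 at -0.24, Furin at -0.049, Tgfbi at -0.14 and Acvr1b at -0.021. That left stromal marker sums of 241 and 197 CPM in RIP1i against 205 and 93.8 CPM in DMSO, still uneven. The libraries left out, RIP1i replicate 2 and DMSO replicate 2, also differed in neutrophil markers (568 and 202 CPM). Their macrophage marker sums were 43957 and 58421 CPM, so these shifts cannot be assigned to stromal level. Smad3, under the mean FPKM of 0.5, had no value with the filter on FPKM. Where a library was left out, 1 group held 2 libraries, and the cause of the shifts was not tested. Counts per library were 7 to 13 for Tgfb2, 40 to 62 for Tgfb3 and 31 to 74 for Gdf3, where depth limits precision, and 66 to 126 for Smad3, whose spread exceeded counting error. The other members had 375 counts or more.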
